A study of Homo sapiens with 4 samples.

Results

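The genes described are 36 members of central glucose metabolism, chosen by name: the transporters that bring glucose in, the enzymes and isoenzymes of glycolysis, lactate dehydrogenase, the transporters that move lactate, the kinases of pyruvate dehydrogenase, and enzymes of glycogen storage and the pentose phosphate route. All 36 were found among the 56304 gene rows of the count table. They were measured by bulk RNAseq in MV3, an established human melanoma line described by the labels as highly metastatic, here carrying H2B-GFP, a histone-linked green fluorescent protein that marks nuclei. MV3 cells were grown as spheroids of 50000 cells and 1 mm diameter, embedded in collagen I, and dissected on day 2 without any treatment. A punch of 1 mm removed the core. The invasion zone around it, made of cells that had moved out into the collagen, was removed with a punch of 3 mm. Each zone had 2 libraries, numbered replicate 1 and replicate 2. All libraries come from 1 cell line, and punching separated the zones by position, so that cells above or below the core may have been taken with it.

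Glycolysis splits glucose into pyruvate with a small yield of ATP. When oxygen is short, or when cells ferment glucose despite having oxygen, as many tumour cells do, pyruvate is reduced to lactate and the lactate is exported with a proton, while pyruvate dehydrogenase kinases hold pyruvate back from the mitochondria. Glucose can also be stored as glycogen or sent through the pentose phosphate route, which makes NADPH and the ribose of nucleotides. Many glycolytic genes are textbook targets of the hypoxia-inducible factors, transcription factors that accumulate at low oxygen, and respond to several other signals as well.

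The core libraries held 36363358 and 14983135 counts, and the invasion zone libraries 37591782 and 11789243 counts, with both replicate 2 libraries the shallower. Levels are given below as CPM, the gene's count scaled to a library total of 1000000 counts, always in the order replicate 1, replicate 2. Markers of the pigment cell lineage were mostly absent, with 11 of 13 listed melanocyte and neural crest genes under 5 CPM in every library, SOX10, TYR and DCT at or near 0 among them, while AXL and VIM were abundant. Of the fibroblast list, PDGFRA and FAP were detected and lower in the invasion zone, the summed level of the 6 genes being 123 and 83.4 CPM in the core and 49.5 and 23.3 CPM in the invasion zone, while DCN and LUM were at 0. The 3 endothelial markers, mostly PECAM1, summed to 18.0 and 7.68 CPM in the core and 5.75 and 0.933 CPM in the invasion zone. Summed epithelial markers stayed at or below 0.303 CPM and summed leukocyte markers at or below 1.57 CPM in every library. All 6 proliferation markers measured (MKI67, TOP2A, CCNB1, PCNA, MCM2, MCM5) were higher in the invasion zone, where they summed to 1127 and 1338 CPM against 395 and 737 CPM in the core. The part of the fibroblast, endothelial and proliferation markers in the results below was not tested.

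Most of these genes had lower levels in the invasion zone. Together the 36 took 3.60% (replicate 1) and 3.45% (replicate 2) of all counts in the core and 2.45% and 2.22% of those in the invasion zone. PFKFB4, ENO2, SLC2A3, LDHA, PFKFB3 and PGK1 were lower by 2-fold or more, whereas LDHB, SLC16A1 and TALDO1 were higher by less than 2-fold. The edgeR test without a replicate term called no gene at an adjusted p under 0.05. All of the genes named passed once the replicate number was entered as a block, as did 19.4% of all genes tested in each direction. In bulk samples such as these, fewer cells of a type and less RNA per cell cannot be told apart.

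Of the 36 genes, 34 passed the filter on low counts. PDK4 had no count in any library, which allows a level of up to 0.0798 to 0.254 CPM depending on depth, and PYGL stayed between 0.303 and 0.426 CPM. The 34 had a median log2 fold change, invasion zone over core, of -0.54, beside a median of -0.01 over all 15529 genes tested, and 28 of the 34 values were negative. In 22 members the zones did not overlap and the core was the higher, as in 30.0% of all genes tested, and in 6 members the invasion zone was the higher without overlap, as in 28.3% of all genes. The other 6 members had overlapping zones. The direction was the same within both replicate numbers for 32 of the 34, beside 80.6% of all genes.

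The edgeR quasi-likelihood test without a replicate term called no gene at a Benjamini-Hochberg adjusted p under 0.05, neither among the members nor among all 15529 genes, the background being 0% and the smallest adjusted p 0.128. At an unadjusted p under 0.05, 20 of the 34 members (58.8%) passed, beside 24.3% of all genes. Adding the 2-fold minimum to the unadjusted p left 6 members lower, beside 5.85% of all genes, and 0 higher, beside 2.92%. Once the replicate number entered the edgeR model as a block, 6 members were lower in the invasion zone at an adjusted p under 0.05 and at least 2-fold (17.6% of the members, beside 7.06% of all genes tested), and none was higher by that fold, beside 3.41% of all genes. Without the fold minimum the blocked test placed 20 members lower (58.8%, beside 19.4% of all genes), 3 higher (8.82%, beside 19.4%) and 11 neither. DESeq2 without a block called the same 6 members lower by the 2-fold rule, of 33 with an adjusted p, beside 4.33% of all genes, and none higher, beside 2.63%. Below, "fell" and "rose" are used of genes that passed the blocked edgeR test at an adjusted p under 0.05, each adjusted p is from that test, and each log2 fold change (invasion zone over core) with its standard error is from the fit without the block, in which every member's adjusted p lay between 0.128 and 0.792.

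**Figure D1:**
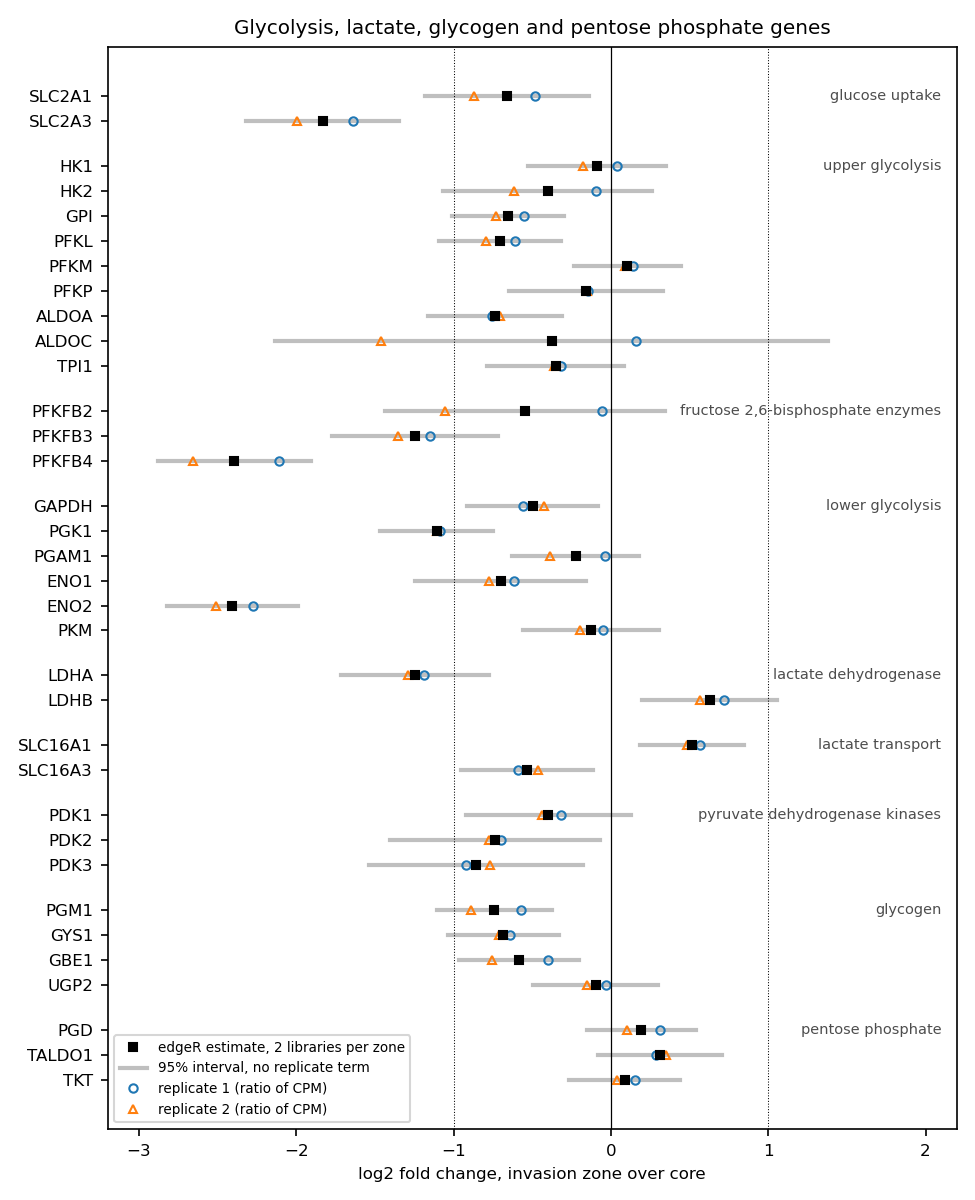
Log2 fold change, invasion zone over core, for the 34 members that passed the count filter, ordered by step. Squares are edgeR estimates from 2 libraries per zone without a replicate term and grey bars their 95% intervals, circles and triangles are the ratios of CPM within replicate 1 and within replicate 2, and dotted lines mark 2-fold. PFKFB4 and ENO2 lie furthest to the left at -2.39 and -2.41, and LDHB and SLC16A1 furthest to the right at 0.63 and 0.51.

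Both glucose transporter members fell, beside 19.4% of all genes tested, the less abundant one by more. SLC2A3 (GLUT3, a transporter with high affinity for glucose, chromosome 12, 7919230 to 8019007, minus strand, hg38) had 27.8 and 34.9 CPM in the core and 8.94 and 8.74 CPM in the invasion zone. The zones did not overlap, and the edgeR fit without the block placed the core 3.56-fold above the invasion zone. Its log2 fold change in that fit was -1.83 (SE 0.19, 95% interval -2.32 to -1.35, n = 2 libraries per zone, edgeR adjusted p = 0.128). The blocked test gave edgeR adjusted p = 8.39e-05. SLC2A1 (GLUT1, the widespread basal glucose transporter) had 261 and 242 CPM in the core and 187 and 132 CPM in the invasion zone, again without overlap, and fell by 0.66 on the log2 scale (SE 0.21, edgeR adjusted p = 0.000816). Per kilobase of the longest transcript, SLC2A3 made up 7.55% and 9.97% of the summed level of both transporters in the core and 3.53% and 4.82% in the invasion zone.

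The hexokinases, which trap glucose in the cell by phosphorylation, were the first step at which the zones overlapped. HK1, the more abundant of both, had 285 and 371 CPM in the core and 292 and 328 CPM in the invasion zone. HK2, the inducible form typical of muscle and many tumours, had 29.8 and 49.5 CPM in the core and 27.9 and 32.2 CPM in the invasion zone. Neither passed the test, with edgeR adjusted p = 0.458 for HK1 and edgeR adjusted p = 0.0706 for HK2. The 95% interval of the HK2 log2 fold change ran from -1.06 to 0.26, which includes a 2-fold lower level.

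Next in order, GPI, which turns glucose phosphate into fructose phosphate, fell from 558 and 634 CPM in the core to 381 and 382 CPM in the invasion zone (log2 fold change -0.65, SE 0.14, edgeR adjusted p = 0.000305). The 3 phosphofructokinase genes, whose enzyme commits sugar to glycolysis, differed from one another. PFKL, named for liver, fell from 299 and 288 CPM to 196 and 166 CPM, with a log2 fold change of -0.71 (SE 0.15, edgeR adjusted p = 0.000242). PFKM, named for muscle, had 65.5 and 71.5 CPM in the core and 72.2 and 76.1 CPM in the invasion zone, and PFKP, named for platelets, had 195 and 252 CPM and 176 and 227 CPM. Neither of these passed the test (edgeR adjusted p = 0.385 and edgeR adjusted p = 0.121). Per kilobase, PFKL took 38.9% and 33.0% of the family's level in the core and 30.5% and 23.4% in the invasion zone, PFKM took 14.3% and 13.8% against 18.9% and 18.0%, and the shares of PFKP overlapped.

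Aldolase, which splits the sugar into a pair of triose phosphates, came almost wholly from ALDOA. ALDOA fell from 3582 and 4077 CPM in the core to 2124 and 2498 CPM in the invasion zone (log2 fold change -0.74, SE 0.17, edgeR adjusted p = 0.000155). Its exons share 1639 of 3829 bases with another annotated gene on the same strand, so that reads from both may not have been separated. ALDOC, the brain form, was near the floor at 0.170 to 0.467 CPM in all libraries. TPI1, which interconverts the triose phosphates, fell from 1064 and 1296 CPM to 852 and 1009 CPM, a smaller change at -0.35 on the log2 scale (SE 0.17, edgeR adjusted p = 0.00433). Without the block, the 95% interval of the TPI1 log2 fold change ran from -0.79 to 0.08, which includes no change.

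The enzymes that make and remove fructose 2,6-bisphosphate, the strongest activator of phosphofructokinase, held some of the lowest values of the whole list. PFKFB4 (chromosome 3, 48517684 to 48562015, minus strand) had 58.0 and 75.3 CPM in the core and 13.4 and 11.96 CPM in the invasion zone. Every core library thus stood above every invasion zone library, by 5.25-fold in the edgeR fit without the block. The log2 fold change was -2.39 (SE 0.19, 95% interval -2.88 to -1.91, edgeR adjusted p = 4.09e-05). PFKFB3 (chromosome 10, 6144934 to 6254644, plus strand), the family member with the highest kinase to phosphatase activity, had 141 and 119 CPM in the core and 63.6 and 46.7 CPM in the invasion zone. It fell by 1.25 on the log2 scale (SE 0.21, edgeR adjusted p = 6.04e-05). PFKFB2, the heart form, was low at 3.66 and 5.47 CPM and at 3.51 and 2.63 CPM and did not pass the test (edgeR adjusted p = 0.251). PFKFB4 made up 34.3% and 44.2% of the family's level per kilobase in the core and 20.8% and 24.2% in the invasion zone, and the share of PFKFB3 was correspondingly higher there, at 76.5% and 73.1% against 64.6% and 54.2%.

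In the later steps of the pathway, where ATP and NADH are made, 4 of the 6 genes fell, beside 19.4% of all genes tested. GAPDH, which oxidises glyceraldehyde phosphate and is widely used as a reference gene, had 2695 and 2948 CPM in the core and 1831 and 2193 CPM in the invasion zone, without overlap, at -0.50 on the log2 scale (SE 0.17, edgeR adjusted p = 0.000986). PGK1 (chromosome X, 77910739 to 78129295, plus strand), the first ATP-yielding enzyme, had 1771 and 1752 CPM in the core and 833 and 813 CPM in the invasion zone. Replicates lay close together in each zone, and PGK1 fell by 1.11 on the log2 scale (SE 0.14, 95% interval -1.47 to -0.75, edgeR adjusted p = 5.08e-05). PGAM1, which moves the phosphate group within phosphoglycerate, had 36.5 and 44.2 CPM against 35.6 and 33.8 CPM and did not pass (edgeR adjusted p = 0.192).

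Enolase makes phosphoenolpyruvate, and its 2 genes fell by different amounts. ENO1, the ubiquitous form, was the most abundant member, with 16120 and 13796 CPM in the core and 10497 and 8047 CPM in the invasion zone (log2 fold change -0.70, SE 0.22, edgeR adjusted p = 0.000236). ENO1 alone held 1.61% and 1.38% of all counts in the core and 1.05% and 0.805% in the invasion zone. ENO2 (chromosome 12, 6913745 to 6923698, plus strand), the form typical of neurons and neuroendocrine cells, had 81.8 and 100 CPM in the core and 16.9 and 17.6 CPM in the invasion zone. This was the lowest log2 fold change of the list, at -2.41 (SE 0.17, 95% interval -2.82 to -1.99, edgeR adjusted p = 2.67e-05), which is 5.31-fold higher in the core. ENO2 nevertheless remained a small part of the family, 0.455% and 0.652% of the enolase level per kilobase in the core and 0.145% and 0.197% in the invasion zone. PKM, the pyruvate kinase that yields the last ATP, had 2785 and 2584 CPM in the core and 2685 and 2259 CPM in the invasion zone. Its zones overlapped (log2 fold change -0.13, 95% interval -0.56 to 0.30, edgeR adjusted p = 0.188), and counts per gene do not tell its splice forms apart.

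**Figure D2:**
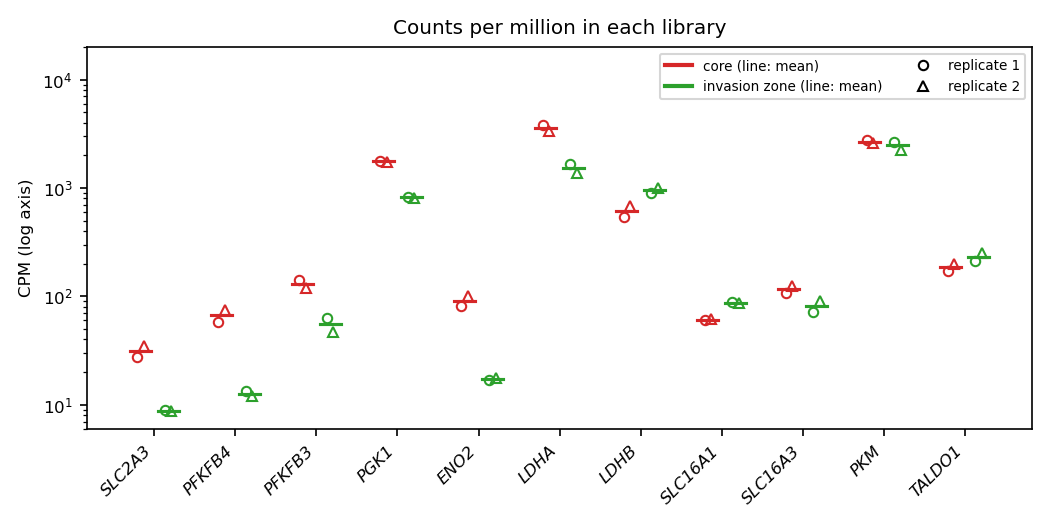
CPM (log axis) of 11 members in each library, core in red and invasion zone in green, circles for replicate 1, triangles for replicate 2 and lines for the mean of the 2 libraries. SLC2A3, PFKFB4, PFKFB3, PGK1, ENO2, LDHA and SLC16A3 have their green points below their red points, LDHB, SLC16A1 and TALDO1 have them above, and PKM overlaps.

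The lactate dehydrogenase genes moved in opposite directions. LDHA, whose subunit favours the reduction of pyruvate to lactate (chromosome 11, 18394560 to 18408425, plus strand), had 3797 and 3344 CPM in the core and 1666 and 1369 CPM in the invasion zone. LDHB, whose subunit favours the reverse reaction (chromosome 12, 21635342 to 21757857, minus strand), had 544 and 681 CPM in the core and 895 and 1009 CPM in the invasion zone. In neither gene did the zones overlap. LDHA fell by 1.25 on the log2 scale (SE 0.19, 95% interval -1.71 to -0.78, edgeR adjusted p = 3.67e-05). LDHB rose by 0.63 on the log2 scale (SE 0.17, 95% interval 0.20 to 1.06, edgeR adjusted p = 0.000304). The ratio of LDHA to LDHB counts within a library was 6.98 and 4.91 in the core and 1.86 and 1.36 in the invasion zone, a fall of 3.75-fold within replicate 1 and 3.62-fold within replicate 2. Per kilobase, LDHA made up 82.7% and 77.1% of both in the core and 56.1% and 48.2% in the invasion zone.

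Sequence copies limit these counts. The 6 annotated LDHA pseudogenes summed to 136 and 124 CPM in the core and 55.4 and 50.6 CPM in the invasion zone, so that they were lower there as LDHA was, and reads may be shared between them. LDHB shares 997 of its 2983 exonic bases with another annotated gene on the same strand. The 65 annotated GAPDH pseudogenes summed to 17.1 to 68.2 CPM, a small amount beside GAPDH itself.

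The promoters of LDHA and LDHB are printed because the genes moved apart. That of PGK1 is printed as an example picked, by no set rule, from the genes that fell by 2-fold or more. For PFKFB3, PFKFB4 and ENO2, which also fell by 2-fold or more, only shorter stretches around the letters searched are printed. The letters were ACGTG or GCGTG on either strand, the core of the element that the hypoxia-inducible factors recognise, in the 250 bases before a RefSeq start (GRCh38.p14). Capitals mark each place where they occur, read on the gene's own strand, with overlapping matches (as in CACGTG, which holds ACGTG on both strands) counted as 1 place. The windows are chr11:18394313-18394557 (plus strand, LDHA), chr12:21657848-21658092 (minus, LDHB), chrX:78103998-78104242 (plus, PGK1), chr10:6202812-6202841 (plus, PFKFB3), chr3:48556953-48556981 (minus, PFKFB4) and chr12:6914450-6914478 (plus, ENO2).
LDHA: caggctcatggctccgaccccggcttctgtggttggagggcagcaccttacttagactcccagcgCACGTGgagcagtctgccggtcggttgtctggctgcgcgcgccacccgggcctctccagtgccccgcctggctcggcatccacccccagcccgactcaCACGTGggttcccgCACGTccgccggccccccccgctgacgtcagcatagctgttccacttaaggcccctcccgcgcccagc
LDHB: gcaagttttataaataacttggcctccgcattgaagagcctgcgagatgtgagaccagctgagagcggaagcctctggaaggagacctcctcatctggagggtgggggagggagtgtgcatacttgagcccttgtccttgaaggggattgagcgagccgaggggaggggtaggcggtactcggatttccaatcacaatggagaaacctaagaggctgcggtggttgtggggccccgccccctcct
PGK1: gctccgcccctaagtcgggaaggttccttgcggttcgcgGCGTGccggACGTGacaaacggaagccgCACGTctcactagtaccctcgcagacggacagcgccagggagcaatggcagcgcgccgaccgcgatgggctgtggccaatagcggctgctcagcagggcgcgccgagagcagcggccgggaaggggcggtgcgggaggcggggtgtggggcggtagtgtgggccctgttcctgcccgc
PFKFB3: caccctcctcccCACGTGgaagggggctgg
PFKFB4: tgagttgggcatGCGTGgtcggaggccgg
ENO2: acccgcgctcgtACGTGcgcctccgccgg

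The LDHA and PGK1 windows each held 3 such places and the LDHB window 0. Of the 36 members, 33 had a window, the exceptions being SLC2A3, PFKFB2 and SLC16A1. In the window nearest the start of the canonical transcript, the letters occurred in 21 of the 33 (63.6%). They occurred in 16 of the 19 members with a window that fell (84.2%) and in 5 of the other 14 (35.7%). These shares depend on the window taken. With any window of a gene counted, the letters occurred in 18 of the same 19 and in 7 of the other 14. Counted in that way, 47.4% of all 27305 genes with a window held them. The nearest windows of PFKM, PGAM1 and PFKP, none of which fell, held no match. They lay 3283, 1627 and 422 bases from the canonical start, and PFKM and PFKP held the letters in another window. The letters occurred in 43.2% of all 35116 RefSeq windows of the same length, so a match is common, and 6.35% held CACGTG. Both of these shares are per window, unlike the member shares, which are per gene. No share of nearest windows was taken over all genes. These are matches of letters and no test was made on them. GAPDH and PDK2, which fell by less than 2-fold, also held CACGTG in the window nearest the canonical start, as did ALDOC, which was near the floor. The GAPDH window lay 747 bases from that start.

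Lactate leaves or enters cells through monocarboxylate transporters, and here too the isoforms moved in opposite directions. SLC16A3 (MCT4, the form associated with export from highly glycolytic cells) had 108 and 124 CPM in the core and 71.8 and 89.9 CPM in the invasion zone, and fell by 0.53 on the log2 scale (SE 0.17, edgeR adjusted p = 0.00136). SLC16A1 (MCT1, which carries lactate either way) had 60.3 and 61.7 CPM in the core and 89.1 and 86.3 CPM in the invasion zone, and rose by 0.51 on the log2 scale (SE 0.13, edgeR adjusted p = 0.00207). The zones overlapped in neither gene, and SLC16A3 counts were 1.79 and 2.01 times those of SLC16A1 in the core and 0.806 and 1.04 times in the invasion zone. The share of SLC16A3 in their summed level per kilobase was 61.9% and 64.6% in the core and 42.2% and 48.5% in the invasion zone. The sum itself overlapped, at 36.1 and 39.8 CPM per kilobase in the core and 35.2 and 38.4 CPM per kilobase in the invasion zone. BSG, the chaperone that both transporters need to reach the membrane, was not a member and was looked up after its values were seen: it had 2195 and 1637 CPM in the core and 1134 and 846 CPM in the invasion zone, and fell by 0.96 on the log2 scale (edgeR adjusted p = 6.19e-05).

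**Figure D3:**
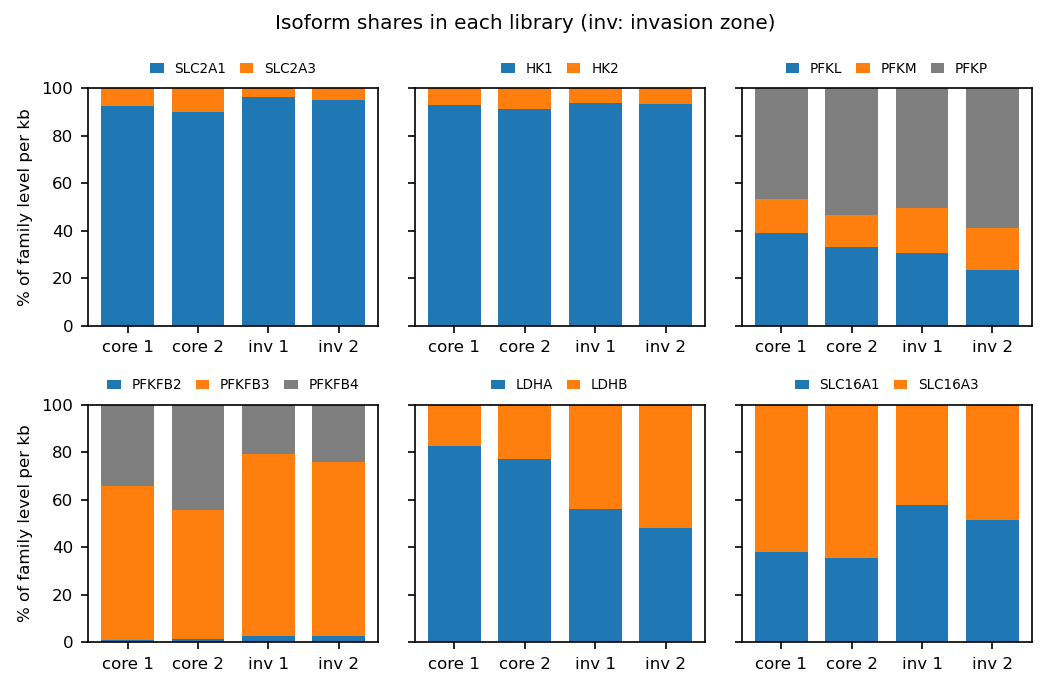
Share of each isoform in its family's summed CPM per kilobase of longest transcript, in percent, for each library (inv is the invasion zone). LDHA shrinks from 82.7% and 77.1% in the core to 56.1% and 48.2% in the invasion zone, SLC16A3 from 61.9% and 64.6% to 42.2% and 48.5%, and PFKFB4 from 34.3% and 44.2% to 20.8% and 24.2%, while HK1 stays above 91% in every library.

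Pyruvate dehydrogenase kinases switch off the complex that carries pyruvate into the mitochondrial citric acid cycle. All 3 detected members fell, beside 19.4% of all genes tested. PDK1, a textbook hypoxia target, had 32.7 and 44.1 CPM in the core and 26.3 and 32.5 CPM in the invasion zone, the smallest of these changes, at -0.40 on the log2 scale (SE 0.21, edgeR adjusted p = 0.0192). Its 95% interval in the fit without the block ran from -0.92 to 0.12, which includes no change. PDK2 had 48.0 and 35.0 CPM and 29.6 and 20.4 CPM (-0.74, SE 0.26, edgeR adjusted p = 0.000822), and PDK3 had 9.85 and 12.3 CPM and 5.19 and 7.21 CPM (-0.86, SE 0.27, edgeR adjusted p = 0.00644). The zones were apart in each gene, by a narrow margin in PDK1. PDK2 shares 2113 of its 5471 exonic bases with SAMD14 on the opposite strand, and whether the counting used strand was not stated. The shares of the kinases within the family overlapped between the zones. Of 8 genes of the complex and its phosphatases, none of which is a member and all of which were looked up after their values were seen, PDHA1, DLAT and DLD rose and PDP1 fell. Of all genes tested, 19.4% passed in each direction. PDHA1, the catalytic subunit that the kinases phosphorylate, had 72.4 and 99.6 CPM in the core and 111 and 144 CPM in the invasion zone (edgeR adjusted p = 0.000849).

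Of the 4 glycogen members tested, 3 fell, beside 19.4% of all genes tested. PGM1, which links glucose phosphates to glycogen, had 112 and 131 CPM in the core and 75.4 and 70.6 CPM in the invasion zone (-0.74 on the log2 scale, SE 0.15, edgeR adjusted p = 0.000569). GYS1, the muscle-type glycogen synthase, fell from 264 and 253 CPM to 170 and 155 CPM (-0.68, SE 0.14, edgeR adjusted p = 0.000224). GBE1, the branching enzyme, fell from 74.0 and 84.2 CPM to 56.0 and 49.9 CPM (-0.59, SE 0.15, edgeR adjusted p = 0.00296). In contrast UGP2, which makes the UDP-glucose that glycogen synthase uses, had 113 and 104 CPM in the core and 111 and 93.2 CPM in the invasion zone and did not pass (edgeR adjusted p = 0.377). Of the phosphorylases, which break glycogen down, PYGL was barely detected, and PYGB, the brain form, which is no member and was singled out after its values were seen, made up 99.8% of the level of both per kilobase in every library. PYGB itself had 272 and 278 CPM in the core and 320 and 293 CPM in the invasion zone and did not pass the test (edgeR adjusted p = 0.165).

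The pentose phosphate members were the only step at which every member lay higher in the invasion zone without overlap, by small amounts. Of all genes tested, 28.3% lay higher in that way. TALDO1 (transaldolase, of the branch that rearranges sugars) rose from 173 and 198 CPM in the core to 211 and 252 CPM in the invasion zone, by 0.31 on the log2 scale (SE 0.16, edgeR adjusted p = 0.0105). Its 95% interval in the fit without the block ran from -0.08 to 0.71, which includes no change. PGD, the second NADPH-making enzyme, had 260 and 288 CPM and 322 and 309 CPM (edgeR adjusted p = 0.0813), and TKT, transketolase, had 389 and 383 CPM and 432 and 394 CPM (edgeR adjusted p = 0.389). Of these 3 genes, only TALDO1 therefore passed.

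Set out by reaction rather than by gene, the summed level per kilobase was lower in both invasion zone libraries than in both core libraries at 10 of 13 steps from glucose transport to lactate transport. Taken singly, 30.0% of all genes tested were lower in that way. The sums reuse the members described above. Phosphoglycerate mutase was among the 10, at 1.02-fold (replicate 1) and 1.31-fold (replicate 2) higher in the core, although PGAM1 did not pass the test. The 3 steps with overlap were hexokinase, pyruvate kinase and monocarboxylate transport. Phosphoglycerate kinase differed by the largest ratio within both replicates, 2.13-fold (replicate 1) and 2.15-fold (replicate 2) higher in the core. Enolase was the most abundant step in the core, with a mean of 5903 CPM per kilobase. Phosphoglycerate mutase was the least abundant, with 22.4 CPM per kilobase. Both ranks held whichever of the longest transcript or the union of exons was taken as the length. PGAM1 has 13 annotated pseudogenes and only unique hits were counted, so its level may be understated. Lactate dehydrogenase as a whole was 1.55-fold and 1.53-fold higher in the core, less than LDHA alone.

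Genes of the same pathways outside the members showed no common direction. Of 78 listed, 53 passed the count filter, their median log2 fold change being -0.04, and in 18 the zones lay apart with the invasion zone lower, beside 30.0% of all genes tested, and in 16 higher, beside 28.3%. The blocked test placed 14 lower and 9 higher, beside 19.4% of all genes in each direction. With the 2-fold rule it placed 5 lower, beside 7.06% of all genes, and 1 higher, beside 3.41%. By group, 6 of the 11 further glucose transporters listed were tested. Of these 6, 5 fell, beside 19.4% of all genes tested, and in all 6 both invasion zone libraries were lower, beside 30.0%. SLC2A5 (at most 1.62 CPM) and SLC2A12 (at most 1.10 CPM) were near the floor. In each of the other groups, log2 fold changes of both signs occurred. SLC2A11, a fructose and glucose transporter, had 17.3 and 12.6 CPM in the core and 8.14 and 4.24 CPM in the invasion zone (-1.25 on the log2 scale, edgeR adjusted p = 0.000885).

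In the pentose phosphate route, members of the further list moved both ways. H6PD, the enzyme of the endoplasmic reticulum that makes NADPH there, fell from 157 and 132 CPM to 64.6 and 32.1 CPM (-1.58 on the log2 scale, SE 0.35, edgeR adjusted p = 0.000139). PRPS1, which makes the activated ribose for nucleotide synthesis, rose from 14.4 and 16.5 CPM to 29.1 and 36.05 CPM (1.06 on the log2 scale, SE 0.19, edgeR adjusted p = 0.000287). RPIA, which makes ribose phosphate and was singled out after its values were seen, rose from 27.0 and 35.3 CPM to 52.0 and 67.3 CPM (0.93 on the log2 scale, edgeR adjusted p = 0.000207). In the glycogen group PPP1R3B, a subunit that targets a phosphatase to glycogen, fell from 14.4 and 20.9 CPM to 8.17 and 9.08 CPM (-1.04 on the log2 scale, edgeR adjusted p = 0.00175).

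**Figure D4:**
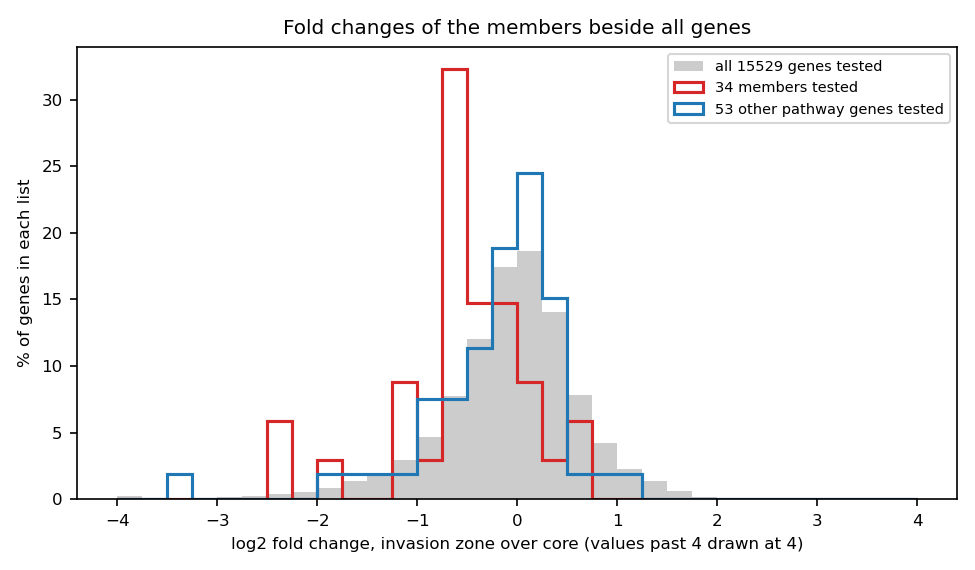
Histogram of the log2 fold change, invasion zone over core (horizontal axis), as the percent of genes in each list (vertical axis), for all 15529 genes tested (grey), the 34 members tested (red) and the 53 further pathway genes tested (blue). The members have a median of -0.54 and the further pathway genes a median of -0.04, beside -0.01 for all genes.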

How the data were processed

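Bulk RNAseq was available for 2 core and 2 invasion zone libraries of MV3 spheroids. The authors deposited raw counts per gene, not normalized. By their methods and processing notes, ribosomal RNA reads were filtered out with Bowtie, reads above a quality minimum were mapped to hg38 by STAR, unique hits were counted by HTSeq-count and zones compared by DESeq2. Tool versions, the strand setting and the annotation release were not given in the sources used here. Low-input cDNA amplification without molecular identifiers means that the floors set by a missing count cover counting error only. The intervals of the fold changes also take in the estimated spread between libraries.

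Of 56306 rows, 2 repeated rows without counts were left out. In R 4.3.3, genes were filtered by filterByExpr of edgeR 4.0.16 (15529 kept), scaled by TMM (factors 0.9855 to 1.0091) and compared by the quasi-likelihood test with Benjamini-Hochberg adjustment over all genes tested. Calls required an adjusted p under 0.05 and a fold of at least 2. Only the spread between 2 libraries per zone enters, which may be technical, as nothing says that they came from separate cultures. An exact permutation test of 2 against 2 libraries cannot go below p = 0.3333. Counts differed between libraries of a zone by more than sampling noise (chi-square per degree of freedom 20.7 in the core, 19.2 in the invasion zone).

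The methods take the core and then its corresponding invasion zone from 1 dissected spheroid, and the library numbers are consecutive. Libraries of one number were therefore taken as pairs, although no source states what the number marks. Across the 15529 genes tested, the deviations of same-numbered libraries from their zone means correlated at 0.58. With 2 pairs, of which both replicate 2 libraries were the shallower, pairing cannot be told apart from a depth or batch difference. The fit with the replicate number as a block rests on this assumed pairing. It has 1 residual degree of freedom, beside 2 without the block, and is given beside the main fit.

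Levels are CPM over the column total. Levels per kilobase use the longest transcript in GENCODE 44. Promoter windows are from RefSeq. The 36 members, the 78 further pathway genes and the marker lists were chosen with earlier results of these data known. Text names all members, and further pathway genes of at least 10 mean CPM and 2-fold, and says where another was singled out. Alternatives were RLE scaling, other filters, the replicate block, DESeq2 1.42.0, limma 3.58.1 (voom), unadjusted p, no fold minimum, each library left out and other lengths, of which the canonical transcript length was added after the data were seen. Scripts were tested on simulated data. Figures used matplotlib 3.10.9.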

Additional observations from a re-analysis of the deposited data

How the results depend on the processing

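The count of genes called at an adjusted p under 0.05 and 2-fold was 0 for the members, for the further pathway genes and for all genes, and stayed 0 with RLE scaling, with at least 10 counts in every library, with voom and without the fold minimum. At an unadjusted p under 0.05 and 2-fold it was 6, 6 and 1363 in that order. Without a count filter it was 6, 6 and 1273. With the replicate block it was 6, 6 and 1627, with DESeq2 6, 5 and 921, with DESeq2 and the block 6, 6 and 1192, with voom and the block 6, 5 and 1663, and with the block but no fold minimum 23, 23 and 6019. Leaving out 1 library gave 3 to 7 members, 1 to 8 further pathway genes and 138 to 1713 genes in all, the lone library being assumed to vary like the other zone's. The 3 members were called when core replicate 1 was left out, the 7 when invasion zone replicate 1 was, and 6 when either replicate 2 library was. The cause of these differences was not tested.

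Of the 34 members, 31 kept the sign of their log2 fold change under every alternative run. With 1 library left out, HK1 ranged from -0.24 to 0.10, positive without core replicate 2. PFKP ranged from -0.34 to 0.028, positive without core replicate 2 and, at 0.0048, without invasion zone replicate 1. UGP2 ranged from -0.24 to 0.025, positive without invasion zone replicate 2. None of the 3 passed a test in the main or the blocked fit. The block turned no direction. Shares per kilobase depend on the length taken: the mean LDHA share was 74.2% and 44.1% (core, invasion zone) with the union of exons and 77.2% and 48.0% with the canonical transcript, and that of SLC16A3 56.6% and 38.7%, and 73.3% and 56.9%.

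Only 2 libraries per zone, both replicate 2 libraries the shallower, limit these comparisons. At 11789243 counts, a count of 0 allows up to 0.254 CPM, so PDK4 was not detectable above that level there, and ALDOC and PYGL lie near it.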
